A study of Mus musculus with 8 samples.

Results

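C-type lectin receptors are surface proteins of myeloid cells that bind sugars, lipids or the debris of dead cells. Some of them take up their ligand, and others signal through adaptors that carry an activating (ITAM) motif to the kinase SYK and the adaptor CARD9, or through an inhibitory (ITIM) motif that recruits phosphatases. Several are used as markers of myeloid cell types in tumors, such as Mrc1 for macrophages, Clec9a for cross-presenting dendritic cells and Cd209a for other conventional and monocyte-derived dendritic cells.

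The set described here holds 10 genes, of which 9 have a row among the 32285 genes of the matrices: Cd209a, Clec10a, Mrc1, Clec4d, Clec4e, Clec4n, Clec5a, Clec12a and Clec9a. Clec7a, the receptor for fungal beta-glucan, is not analysed here. The members were chosen by the values of the same matrices, since Cd209a was lower in Ythdf2-cKO cells of all 4 libraries under one hashtag rule, so the pattern of Cd209a is given as a description.

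The study sorted CD45+CD11b+Ly6Chi cells from MC38 tumors, a mouse colon carcinoma line grown in mice, and from the blood of tumor-bearing mice, and sequenced them on droplets. Tumors were untreated (control) or received 1 dose of 20 Gy (IR), and cells were taken 3 days later. WT mice were Ythdf2 fl/fl, and Ythdf2-cKO mice were Lyz Cre+; Ythdf2 fl/fl, so that every animal carried the floxed allele of Ythdf2, a reader of m6A in RNA, and Cre from the lysozyme locus acts in myeloid cells at large. According to the methods, male and female mice were 8 to 10 weeks old and 5 were pooled per group. Each of the 4 libraries (blood control, blood IR, tumor control, tumor IR) mixes the 2 genotypes, which carry the hashtag antibodies B0301 (WT) and B0302 (cKO). A cell with at least 20 hashtag UMIs (counted molecules) was labelled WT where B0301 was at least as high as B0302, and cKO where B0302 was at least 4 times B0301.

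This left 8 groups with 1 pool of mice each. No group has a replicate, so no test was made, and intervals (95%) cover counting error only. Levels are CPM, the UMIs of a gene in each 1000000 UMIs of its group. A log2 ratio is called past the limit where its size is at least 1 and the gene has at least 100 UMIs over both groups. These group sums cannot tell fewer cells of a type from less RNA per cell.

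The matrices held 51653956 to 87703837 gene UMIs, and 27444 cells were kept, with 2145 to 4622 cells and 18822099 to 24635825 UMIs per group. Median depth was 2864.5 to 3220 UMIs per cell in the blood groups and 6004 to 8563 in the tumor groups. 3 facts bear on the labels. First, the 3' tags of Ythdf2 were higher in cells labelled cKO. They were at 33.0, 35.9, 55.6 and 50.6 CPM in cells labelled WT of blood control, blood IR, tumor control and tumor IR, and at 303, 341, 370 and 339 CPM in cells labelled cKO. Where these tags lie relative to the deleted part was not tested, and the rise is left unexplained. Lyz2, the locus of the Cre, was lower in cells labelled cKO by log2 ratios of -6.67, -7.37, -6.29 and -5.92. Lyz1 was higher in them by 3.98, 5.44, 4.78 and 5.07. The groups are therefore called cells labelled WT and cells labelled cKO. Second, the 2 tumor matrices hold each other's droplets: 7325 barcodes have hashtags in tumor IR alone and 4955 in tumor control alone, yet carry a median of 3706 and 3408 gene UMIs in the matrix without their hashtags. The hashtag minimum separates them, and 276 barcodes have hashtags in both. The third fact is that among kept cells each pair of libraries shares 7 to 32 barcodes. The blood groups were 66.6% to 70.8% neutrophil-like cells in spite of the sort for Ly6Chi.

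In the genome (mm10, gene models of GENCODE vM21), 6 of the measured members lie on chromosome 6. Clec4n (chr6:123229843-123247021), Clec4d (chr6:123262111-123275265) and Clec4e (chr6:123281789-123289870) are neighbours, as are Clec12a (chr6:129342691-129365303) and Clec9a (chr6:129408862-129424763), and Clec5a stands apart (chr6:40574894-40585821). Cd209a is at chr8:3743397-3748984, Clec10a at chr11:70156197-70170834 and Mrc1 at chr2:14229392-14332057. Promoters of 300 bases, with 250 before the start that RefSeq gives, were matched in RefSeq (GRCm38.p6) for 7 of the 9. They are shown for Cd209a, whose pattern leads the set, and for the neighbours Clec4d and Clec4e, whose levels over clusters were most alike. Capitals mark motifs, which read on the strand opposite to the printed one.
Cd209a: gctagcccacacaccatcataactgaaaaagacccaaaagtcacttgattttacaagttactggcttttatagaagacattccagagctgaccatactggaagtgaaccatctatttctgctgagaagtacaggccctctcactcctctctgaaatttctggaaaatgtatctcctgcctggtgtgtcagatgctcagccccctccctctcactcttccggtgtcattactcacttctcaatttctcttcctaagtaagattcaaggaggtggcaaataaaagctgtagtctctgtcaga
Clec4d: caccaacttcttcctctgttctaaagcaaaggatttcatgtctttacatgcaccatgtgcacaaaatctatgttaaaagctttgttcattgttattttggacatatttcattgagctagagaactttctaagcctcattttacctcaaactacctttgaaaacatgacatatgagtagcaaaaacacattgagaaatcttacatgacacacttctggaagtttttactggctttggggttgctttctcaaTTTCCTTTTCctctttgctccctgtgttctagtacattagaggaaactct
Clec4e: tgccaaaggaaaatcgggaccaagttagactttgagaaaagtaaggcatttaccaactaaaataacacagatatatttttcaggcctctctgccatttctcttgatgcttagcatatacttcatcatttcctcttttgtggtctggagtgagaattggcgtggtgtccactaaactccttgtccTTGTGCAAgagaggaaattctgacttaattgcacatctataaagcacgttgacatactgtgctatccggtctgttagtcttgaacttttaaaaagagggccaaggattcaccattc

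The 3 promoters read chr8:3748935-3749234 (minus strand), chr6:123261857-123262156 (plus) and chr6:123289822-123290121 (minus). 5 motifs, picked after the values were known, were searched on both strands: PU.1 (GAGGAAGT, in 3.2% of 32841 promoters), C/EBP (TTGCNNAA, 10.8%), AP-1 (TGANTCA, 7.81%), NF-kB (1.63%) and the interferon response element (ISRE, 3.44%). Clec4d held the last of these at its start, Clec4e held C/EBP 66 bases before it, and Clec12a held C/EBP and AP-1, in a RefSeq window (chr6:129349994-129350293) that lies inside the GENCODE gene and not at its start. The windows of Cd209a, Mrc1, Clec5a and Clec9a held none of these letters. A match is a description of the letters only.

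Cd209a encodes a receptor for mannose and fucose sugars of the DC-SIGN family. In blood control its level was 60.4 CPM (95% interval 57.2 to 63.8) in cells labelled WT and 28.5 CPM (26.2 to 31.0) in cells labelled cKO. In blood IR it was 26.0 CPM (23.9 to 28.2) and 13.4 CPM (11.8 to 15.2). In tumor control it was 34.1 CPM (31.6 to 36.7) and 11.2 CPM (9.91 to 12.6), and in tumor IR 19.8 CPM (17.9 to 21.8) and 23.3 CPM (21.4 to 25.2). Blood control WT was the highest group, and tumor control cKO and blood IR cKO were the lowest and had overlapping intervals. Tumor IR WT and tumor IR cKO also overlapped. Cells labelled cKO were lower in 3 of the 4 libraries under this rule and slightly higher in tumor IR. The log2 ratios were -1.08 (-1.23 to -0.94), -0.95 (-1.17 to -0.74), -1.60 (-1.81 to -1.40) and 0.24 (0.05 to 0.42). Without the dendritic classes the tumor ratios were -2.45 in control and -1.47 in IR, so that the sign in tumor IR turned. The UMIs left included 169 in 31 cells of unnamed cluster 6 and 125 in 45 cells of unnamed cluster 4. Whether these were dendritic cells was not tested. Clustered with all variable genes, conventional dendritic cell-like cells held 92.8% of the tumor Cd209a.

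After IR, Cd209a was lower in blood under both labels, by log2 ratios of -1.21 (-1.36 to -1.07) in cells labelled WT and -1.08 (-1.31 to -0.87) in cells labelled cKO. In tumors the labels went apart, with -0.79 (-0.97 to -0.61) in cells labelled WT and 1.05 (0.84 to 1.27) in cells labelled cKO. The difference in blood stayed past the limit under every one of 11 alternatives of processing for both labels. The value of 1.05 was past it under 9 of 13. Reads of Cd209a and of its close relative Cd209d can be split by the counting, so the share of each is uncertain. Cd209d had 25 to 102 UMIs per group and cKO over WT ratios of -1.26 in tumor control and 1.51 in tumor IR.

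**Figure D1:**
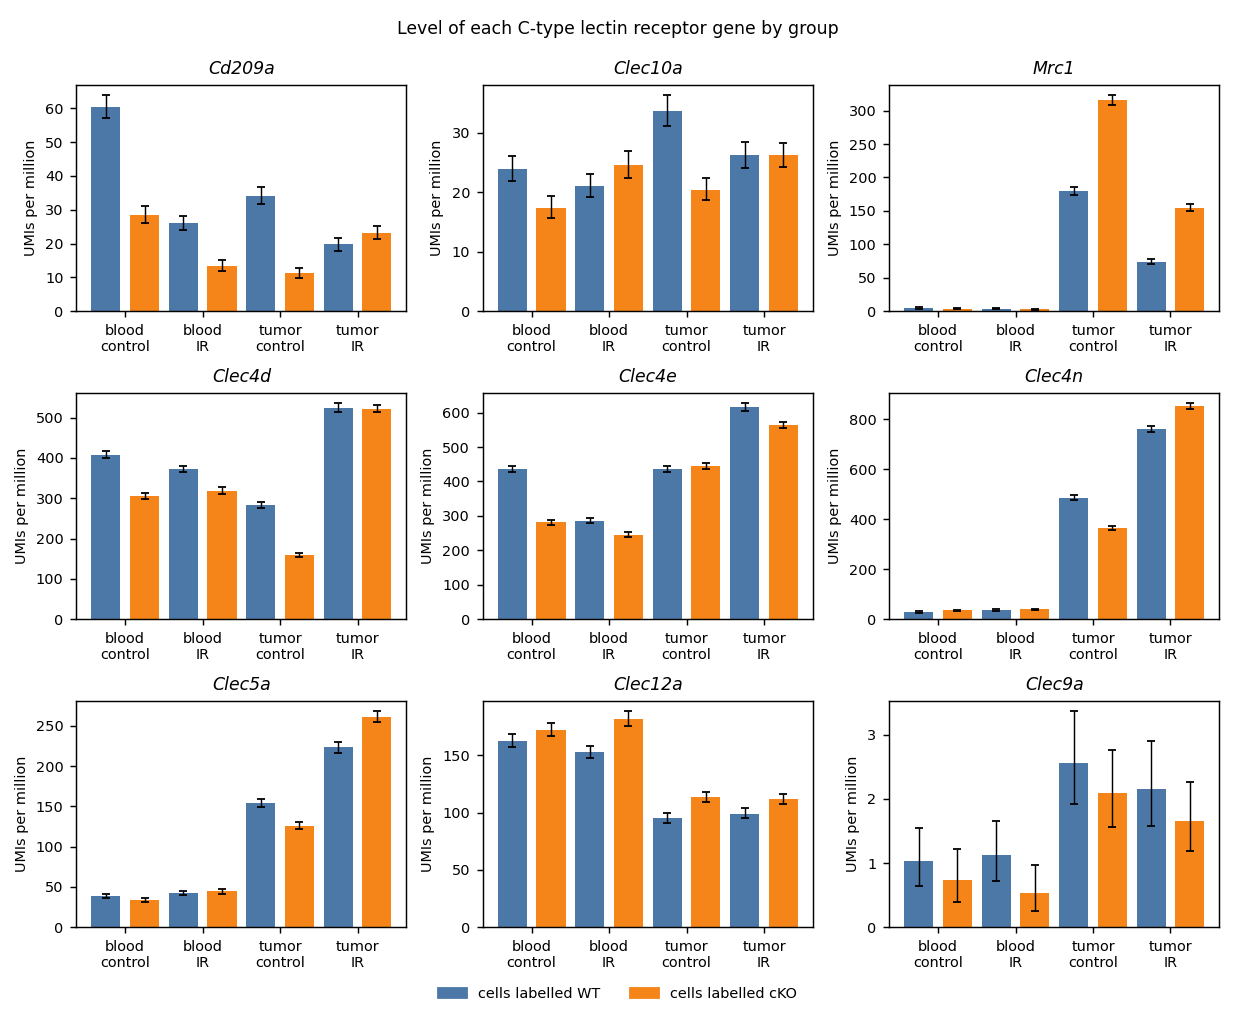
Level of each of the 9 measured members (CPM, linear axis from 0) in the 8 groups, with blue bars for cells labelled WT and orange bars for cells labelled cKO. Error bars are exact Poisson 95% intervals of counting error, and each bar is 1 pool of mice. Cd209a is highest in blood control WT at 60.4, and Mrc1, Clec4n and Clec5a are higher in every tumor group than in any blood group.

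Few cells carried most of the Cd209a. In blood, 162 of 15895 cells had 5 or more Cd209a UMIs and held 90.6% of its UMIs, and the highest cell had 51. In tumor, 134 of 11549 cells held 82.3%. Clustering was done without the members, so that no member defined its cluster. Cluster 17, conventional dendritic cell-like by Flt3, Batf3 and Kmo, held 85.4% of the blood Cd209a in 213 cells at 912 CPM. Batf3 was raised in monocyte-like clusters 2 and 9 too. The other markers sought for that class were not raised in cluster 17, with H2-DMb2 at 8.49 to 31.8 CPM over the blood groups. The monocyte markers Ccr2 and Ly6c2 were at 704 to 948 and 446 to 576 CPM in it, and neither counted as raised. Ly6c2 was at 698 CPM over all hashtag-bearing cells of blood control and 1082 CPM over those of blood IR. Cluster 15, conventional dendritic cell-like by Wdfy4, Naaa, Kmo, H2-DMb2, Tnip3 and Ifi205, held 79.2% of the tumor Cd209a in 465 cells at 396 CPM. Flt3, Zbtb46, Xcr1, Itgae, Batf3 and Irf8 were not raised in it. Naaa and Tnip3 were raised in unnamed cluster 3 too. Ccr7-high mature dendritic cell-like cells (cluster 19) had 0 Cd209a UMIs. A UMI was found in 84.5% of cluster 17 cells and 44.5% of cluster 15 cells, and in 0 of 406 blood and 0 of 339 tumor NK cell-like cells (median depth 11626, 7829, 3324.5 and 2482 UMIs). With each cell thinned to 1000 UMIs the shares were 45.5% and 20.2%, and 0 in NK cell-like cells. The counts of 0 allow a share of up to 0.739% of the blood and 0.885% of the tumor NK cell-like cells with a UMI (3 counts). Cells of a cluster are not replicates.

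Within cluster 17 the Cd209a level was 1165 CPM (1097 to 1236) in blood control WT, 966 (877 to 1060) in blood control cKO, 801 (733 to 873) in blood IR WT and 509 (447 to 578) in blood IR cKO, over 90, 40, 49 and 34 cells. The 4 groups kept the order of the whole blood. This cluster holds most of the blood Cd209a, so its order is not independent of that one. The intervals, which cover counting error of UMIs and not the spread between cells or mice, did not overlap. Cluster 17 was 1.95%, 1.06%, 1.19% and 1.01% of the cells of those groups. The share of its cells with a Cd209a UMI was 92.2%, 92.5% and 87.8% in the first 3 groups, and 17 of 34 cells in blood IR cKO. Of the 3 markers that named the cluster, Flt3 was at 117, 120, 89.2 and 44.5 CPM in them, Batf3 at 111, 131, 100.1 and 125 CPM, and Kmo at 76.4, 75.5, 81.3 and 80.6 CPM. Flt3 was thus lowest where Cd209a was lowest, while Batf3 and Kmo did not follow that order. Cd209d was at 60.5, 122, 53.2 and 46.7 CPM in the same groups. Unlike Cd209a, it was higher in control cKO than in control WT.

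Among monocyte-like cells of blood few carried Cd209a, and their sums had the same order of groups. A UMI was found in 61 of 2888 cells of cluster 2 (2.11%) and 23 of 987 cells of cluster 9 (2.33%), which held 228 and 114 UMIs. In classical monocyte-like cells (cluster 2) the level was 15.8, 8.27, 3.73 and 0.815 CPM in blood control WT, blood control cKO, blood IR WT and blood IR cKO. In nonclassical monocyte-like cells (cluster 9) the level was 22.3, 11.5, 4.07 and 2.11 CPM. The intervals of the control and IR groups did not overlap in either cluster, while those of the IR groups overlapped in cluster 9. Free RNA had 72.8 CPM of Cd209a in blood control and 35.9 in blood IR, while the neutrophil-like clusters of blood had 0 to 0.671 CPM, NK cell-like cells had 0 and the 56 T cell-like cells of blood had 17.6 CPM from 9 UMIs. Whether free RNA gave part of the monocyte level was not tested. Clustered with all variable genes, conventional dendritic cell-like cells held 91.9% of the blood Cd209a. Whether the few cells with a UMI in clusters 2 and 9 were dendritic cells was not tested. Without the dendritic classes, the cKO over WT log2 ratio was -0.69 in blood control and -2.05 in blood IR.

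Within tumor cluster 15 Cd209a was 443 CPM (407 to 482) in control WT, 358 (314 to 406) in control cKO, 290 (255 to 329) in IR WT and 448 (410 to 489) in IR cKO. The IR cKO group and the control WT group overlapped and stood above the other 2. Unlike whole tumor, control cKO was not the lowest here. Cluster 15 was 5.83%, 3.92%, 3.27% and 3.51% of the groups. Markers of mature dendritic cells (Ccl22, Ccl17 and Relb) were raised in it too, and Mgl2, a lectin of the same family as Clec10a, was at 479, 452, 370 and 506 CPM, in the order of Cd209a. Among the markers that named the cluster, H2-DMb2 went otherwise at 231, 277, 371 and 327 CPM, as did Kmo at 75.2, 80.7, 128 and 110 CPM, and Naaa at 356, 320, 505 and 438 CPM. Cd209d was at 39.3, 67.5, 32.2 and 86.7 CPM. It was higher in control cKO than in control WT, unlike Cd209a, and higher in IR cKO than in IR WT, like Cd209a. The clusters named here were singled out after their values were seen.

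**Figure D2:**
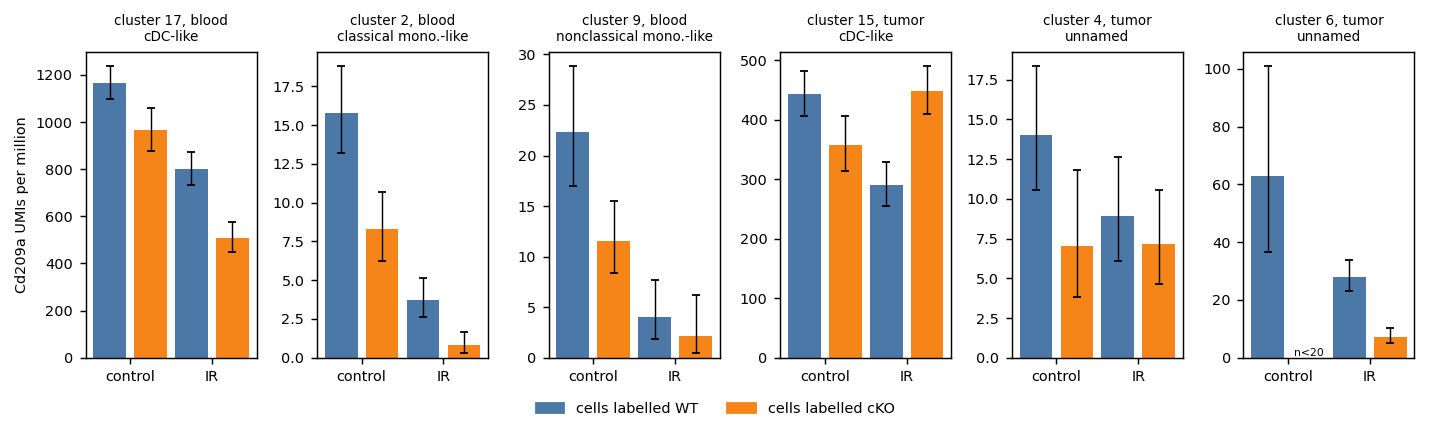
Cd209a (CPM, linear axis from 0, a scale of its own in each panel) in 3 blood and 3 tumor clusters, with blue bars for cells labelled WT, orange bars for cells labelled cKO and error bars for the exact Poisson 95% intervals. The bars of clusters 17, 2 and 9 descend from control WT to IR cKO, while in cluster 15 the IR cKO bar (448) matches the control WT bar (443). A bar with fewer than 20 cells is not drawn.

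The tumor values of Cd209a moved with the hashtag counts. Among tumor control cells labelled WT, those with B0301 at least 4 times B0302 had 8.44 CPM and those with B0301 at 1 to 4 times B0302 had 55.5 CPM, and in tumor IR the values were 11.9 and 54.5. In tumor IR cells labelled cKO, the 987 cells that HTODemux, the caller the study used, left negative had 82.6 CPM and the 2707 it called cKO had 7.85 CPM. Tumor cells with a Cd209a UMI carried fewer hashtag UMIs than those without one, with medians of 483 against 701 (control WT), 609.5 against 1082 (control cKO), 542 against 777 (IR WT) and 761.5 against 1171 (IR cKO). Under HTODemux the cKO over WT ratio was -1.66 in tumor control and -1.37 in tumor IR, so that all 4 libraries were lower in cells labelled cKO. With a margin of 4 times in both directions it was 0.41 and 0.96. The IR over control ratio in tumor cells labelled cKO was -0.44 under HTODemux. In blood, the 81 control and 60 IR cells with B0301 at 1 to 4 times B0302 held 0 Cd209a UMIs (upper bounds of 5.25 and 6.17 CPM), and all the hashtag rules gave ratios of -1.08 to -1.13 in control and -0.95 to -1.01 after IR. So the sign of the tumor ratios depended on the rule and that of the blood ratios did not, although the blood IR ratio was past the limit under HTODemux and under no other hashtag rule. The part of the hashtag counts in these values was not tested.

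**Figure D3:**
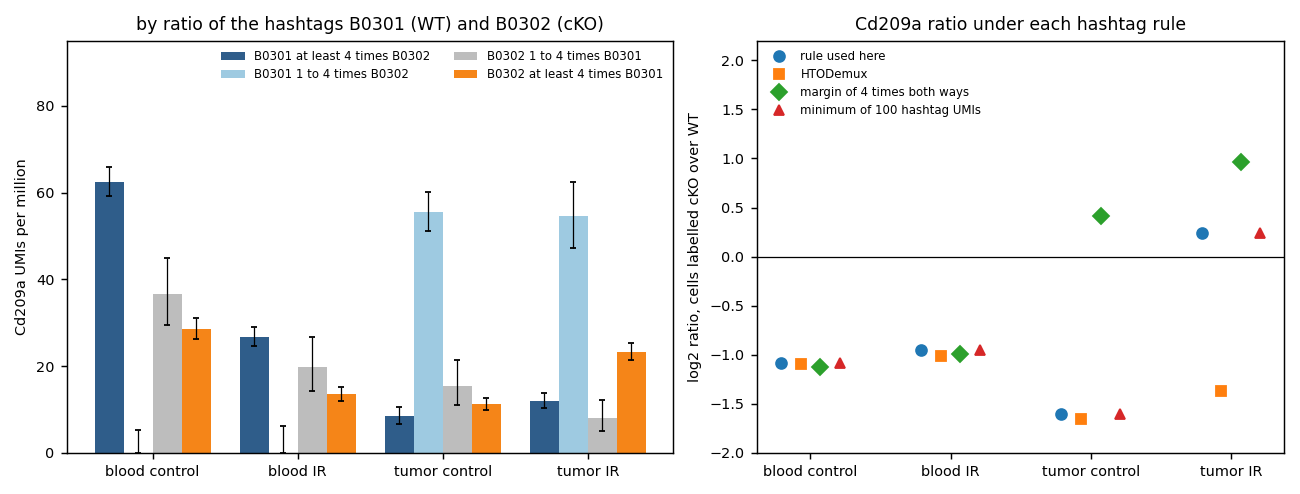
Left, Cd209a (CPM, linear axis from 0) in cells binned by the ratio of the hashtags B0301 and B0302, with exact Poisson 95% intervals. Right, the log2 ratio of cells labelled cKO over WT under 4 hashtag rules in each library. In tumor control the bin of B0301 at 1 to 4 times B0302 stands at 55.5, and the right panel shows the tumor ratios on both sides of 0 while the blood ratios stay near -1.

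Clec10a, a receptor for galactose sugars, was highest in clusters 15 and 17 too, at 284 and 238 CPM, but was held by monocytes as well. In blood, 52.4% of its UMIs came from classical monocyte-like cluster 2 and 33.4% from cluster 17. By group it was 23.998, 17.4, 21.1 and 24.5 CPM in blood control WT, blood control cKO, blood IR WT and blood IR cKO, and 33.7, 20.5, 26.2 and 26.3 CPM in the same order of tumor groups. No comparison of genotype or irradiation was past the limit, and the widest was -0.72 (-0.89 to -0.55) for cKO over WT in tumor control. In cluster 17 its 4 values (262, 213, 211 and 248 CPM) had overlapping intervals of counting error, whereas those of Cd209a did not. Clec10a had 612 UMIs in that cluster and Cd209a had 2329, so the intervals of Clec10a were wider for their size. Across 66 sums of a cluster and a group with at least 50 cells, Pearson's r of log2(CPM + 1) was 0.69 between Cd209a and Clec10a. The sums share libraries and depth, and r is a description.

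Clec9a, the receptor that binds actin of dead cells and marks cross-presenting dendritic cells, was near the limit of these counts with 10 to 52 UMIs per group. Its levels were 1.03, 0.731, 1.12 and 0.531 CPM in the blood groups and 2.57, 2.10, 2.16 and 1.66 CPM in the tumor groups, with overlapping intervals within each tissue. Cluster 15 had 16.3 CPM and cluster 17 had 12.8 CPM. It had at least 100 UMIs in 1 of the 12 comparisons (tumor control, cKO over WT -0.28, -0.88 to 0.30), so differences by label were not detectable at this depth. The genes whose levels over the 66 sums were most like Cd209a were Cd209d (r = 0.84), Wnt11, Kmo, Dpp4 and B4galt4, and those most like Clec9a were Tspan33 (r = 0.75), H2-Oa, H2-Ob, Wnt11 and Cd209d.

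Mrc1, the macrophage mannose receptor, was far higher in tumor than in blood. It was 4.85, 3.55, 3.68 and 2.98 CPM in the blood groups. In tumor it was 179.9 CPM (174 to 186) in control WT, 315 (308 to 323) in control cKO, 73.7 (70.1 to 77.6) in IR WT and 155 (150 to 160) in IR cKO. It was higher in cells labelled cKO in both tumor libraries (0.81 and 1.07) and lower after IR under both labels (-1.29 and -1.03). Macrophage-like cluster 11, led by Fcrls, Ccl8, Folr2 and Gas6, held 48.7% of the tumor Mrc1 and was 6.34%, 16.3%, 1.54% and 2.23% of control WT, control cKO, IR WT and IR cKO. Within that cluster Mrc1 was 1369, 1415, 1109 and 1132 CPM. In macrophage-like cluster 5, Mrc1 was 151 and 329 CPM in control WT and control cKO, and 226 and 357 CPM after IR. A Mrc1 UMI was seen in 91.3% of cluster 11 cells and in 1.47% of 339 tumor NK cell-like cells (medians of 8573 and 2482 UMIs).

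Clec4d and Clec4e encode partner receptors for microbial glycolipids, known as MCL and Mincle, which signal through the FcR gamma chain. Clec4d was 408, 305, 373 and 319 CPM in the blood groups, and 284, 159, 525 and 522 CPM in the tumor groups. Clec4e was 436, 281, 285 and 245 CPM in blood and 436, 446, 615 and 563 CPM in tumor. Each was highest in unnamed tumor cluster 12 (2789 and 2988 CPM in tumor cells), which is led by Ccl3, G0s2, Acod1 and Cxcl3 and was 0.555%, 1.26%, 10.4% and 6.44% of the tumor groups. Next came macrophage-like cluster 5 for Clec4d (1006 CPM), followed by the neutrophil-like clusters 7, 1 and 0 (947, 918 and 912 CPM in blood). For Clec4e the next was unnamed tumor cluster 8 (874 CPM), of low depth and led by Gm26917, Gm42418 and Malt1. Neutrophil-like cluster 0 (791 CPM in blood) and the tumor clusters 5 and 4 (783 and 776 CPM) followed. Over blood and tumor cells together, clusters 0 and 8 were at 792 and 786 CPM. Clec4d was past the limit after IR in tumor cells labelled cKO (1.72, 1.67 to 1.77), and Clec4e was not (0.34, 0.30 to 0.37). Over the 66 sums r was 0.93 between them, the highest of the pairs. In some single clusters Clec4e was lower after IR where whole tumor was higher. In tumor cells labelled cKO its ratio was -0.63 in cluster 3, -0.85 in cluster 4 and -0.76 in cluster 11, and in tumor cells labelled WT it was 0.03 in cluster 3 and -0.24 in cluster 4. Other cells went up: over all macrophage-like cells it was 0.55 and 0.39 under the labels cKO and WT. In conventional dendritic cell-like cells it was 1.80 and -1.64.

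Clec4n, the receptor for mannans known as Dectin-2, and Clec5a, a receptor that pairs with the adaptor DAP12, were higher in tumor in all 4 comparisons. Clec4n was 28.9, 35.7, 37.0 and 39.7 CPM in the blood groups and 487, 364, 763 and 852 CPM in the tumor groups. Clec5a was 38.6, 33.8, 42.5 and 44.7 CPM in blood and 154, 126, 223 and 261 CPM in tumor. Their tumor over blood ratios were 3.35 to 4.42 and 1.90 to 2.54. After IR they were higher in tumor cells labelled cKO by 1.23 (1.19 to 1.26) and 1.05 (0.99 to 1.12), and by 0.65 and 0.53 in tumor cells labelled WT. Without the neutrophil, lymphoid, fibroblast and basophil classes the ratios in tumor cells labelled cKO were 0.78 and 0.61. Unnamed cluster 3, led by H2-Eb1, H2-Ab1, Cdh1 and Cxcl9 with C1q genes raised, held 46.9% of the tumor Clec4n and 51.6% of the tumor Clec5a. Within it Clec4n was 904, 774, 1320 and 1244 CPM and Clec5a was 296, 285, 412 and 442 CPM in the 4 tumor groups.

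Clec12a, an inhibitory receptor with an ITIM that binds uric acid crystals, had no ratio past the limit in the genotype, irradiation or tissue comparisons, and Clec10a had none either. Clec12a was 163, 172, 153 and 182 CPM in blood and 95.1, 113, 99.3 and 112 CPM in tumor, and its 12 ratios ran from -0.78 to 0.25. It was highest in monocyte-like cells, with 199 CPM in cluster 2 and 226 CPM in cluster 9, and a small neutrophil-like cluster 20 (263 CPM). Over whole groups it was higher in cells labelled cKO by 0.08 to 0.25 in all 4 libraries, but single classes went both ways. In classical and nonclassical monocyte-like cells the ratio was -0.08 and -0.12 in blood control and 0.25 and 0.27 in blood IR. In macrophage-like cells it was 0.73 in tumor control and -0.02 in tumor IR.

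**Figure D4:**
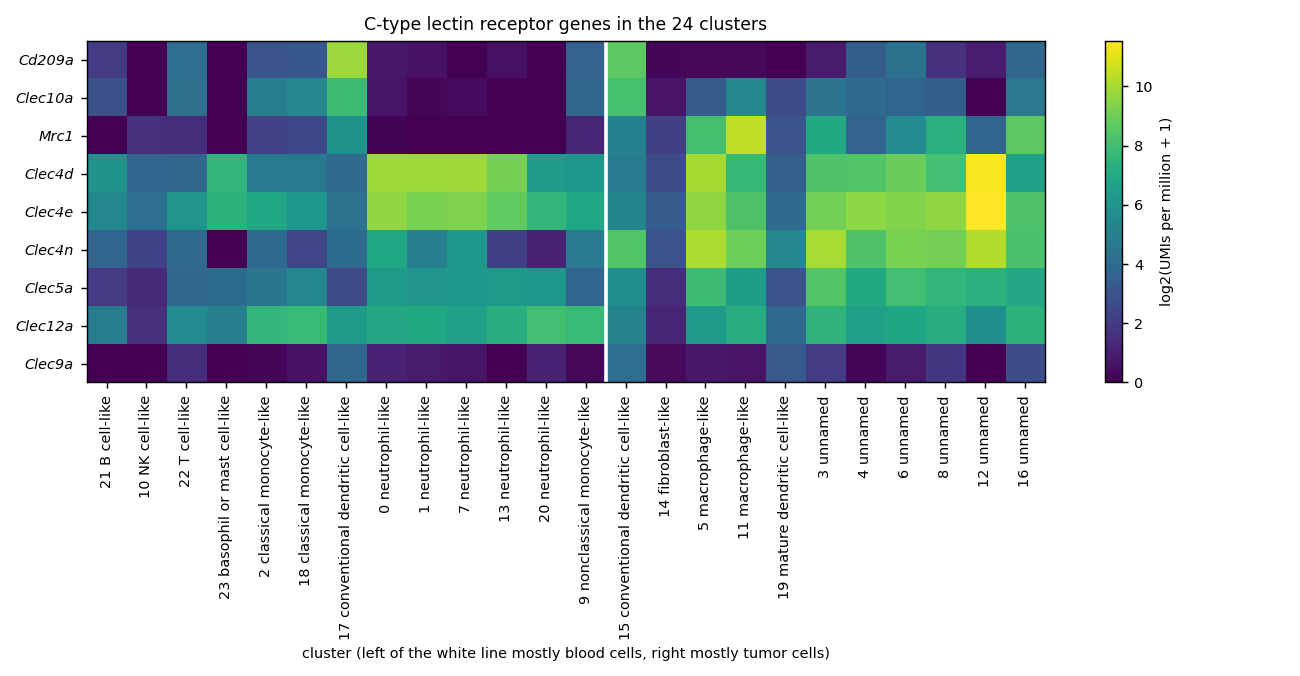
Levels of the 9 members in the 24 clusters as log2(CPM + 1), clusters with mostly blood cells left of the white line and mostly tumor cells right of it. Cd209a and Clec10a are brightest in the 2 conventional dendritic cell-like clusters, Mrc1 in macrophage-like cluster 11, and Clec4d and Clec4e in cluster 12, followed by macrophage-like cluster 5 for Clec4d and neutrophil-like cluster 0 for Clec4e.

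Counted over the members, few ratios were past the limit for genotype. In blood control 1 of 8 counted members (Cd209a) was lower, beside 2.24% of all genes tested. In blood IR 0 of 8 were, beside 0.664%, and 1 of 8 would be with HTODemux. In tumor control 1 of 9 (Cd209a) was, beside 4.87%, and in tumor IR 1 of 8 (Mrc1, higher), beside 1.22%. For IR over control it was 1 of 8 in blood cells labelled WT, beside 1.27%, and 1 of 8 in blood cells labelled cKO, beside 1.36%, Cd209a in both. It was 1 of 8 (Mrc1) in tumor cells labelled WT, beside 5.85%, and 5 of 8 in tumor cells labelled cKO, beside 22.3%. The 5 became 2 without the neutrophil, lymphoid, fibroblast and basophil classes, for which the share of all genes was not counted. For tumor over blood it was 3 of 8 and 4 of 8 in control cells labelled WT and cKO, beside 35.5% and 44.0%, and 4 of 8 and 4 of 8 after IR, beside 32.4% and 32.1%. Since Cd209a was chosen for the genotype contrast, nothing is read from its count. The median of all genes in IR over control was -0.13 in tumor cells labelled WT and -0.18 in tumor cells labelled cKO.

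**Figure D5:**
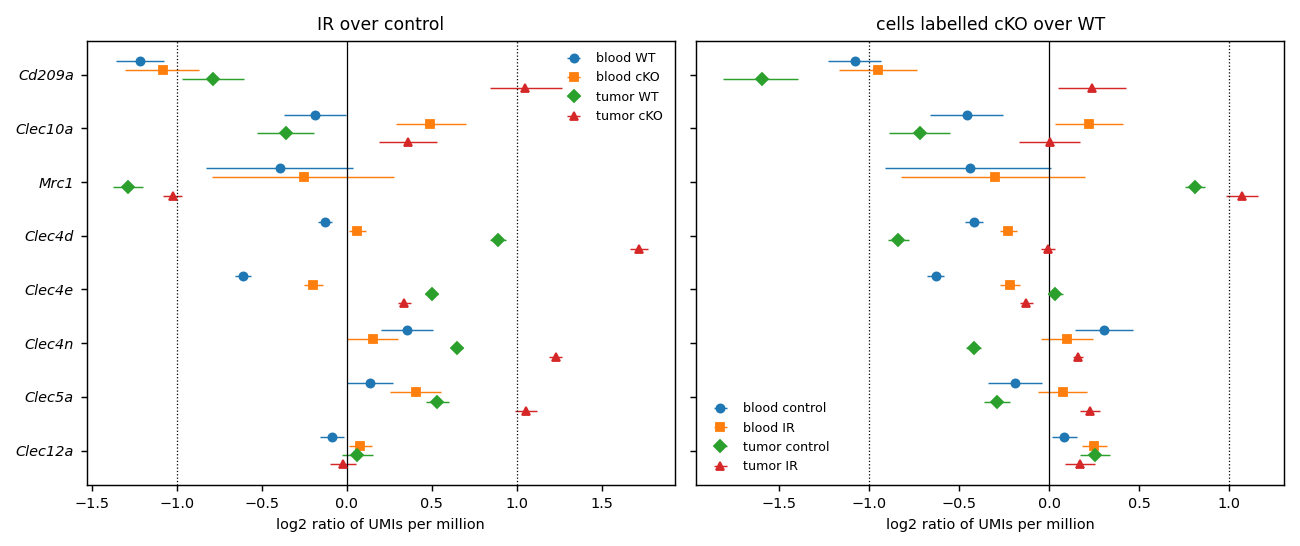
Log2 ratios of the members with at least 100 UMIs, IR over control on the left and cells labelled cKO over WT on the right, with the exact 95% intervals of counting error and dotted lines at the limits of -1 and 1. Cd209a is left of -1 in both blood groups after IR, and Clec4d is farthest right at 1.72 in tumor cells labelled cKO. Clec9a is left out for its low counts.

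The adaptors and kinases that carry the receptors' signals were within the limit by label and irradiation. Of Fcer1g, Tyrobp, Hcst, Syk, Plcg2, Prkcd, Card9, Bcl10 and Malt1, 0 of 9 were past the limit in any of the 8 comparisons of genotype or irradiation. Their medians ran from -0.45 to 0.58. The share of all genes past the limit was 0.664% to 22.3% in those comparisons, and nothing is read from a count of 0 among so few genes. Between tissues, where 32.1% to 44.0% of all genes were past the limit, Malt1, a protease of the CARD9 complex, was higher in tumor (2.63 to 3.27 over the 4 comparisons). Tyrobp, which encodes DAP12, was lower (-1.80 to -1.18), and Hcst was lower too (-3.002 to -2.15). Card9 was lower at -1.78 to -1.39, with 9.12 to 12.2 CPM in tumor and 30.6 to 37.3 CPM in blood. Plcg2 was lower in all 4 (-1.52 to -1.06), Syk in both control comparisons (-1.35 and -1.60) and Prkcd in control cKO (-1.26). Of the phosphatases Ptpn6 (SHP-1) was lower in tumor in all 4 comparisons and Inpp5d (SHIP1) in control WT (-1.20).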

How the data were processed

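Sorted cells of 8 samples were sequenced in 4 libraries (10x 3' kit 3.1 with hashtag antibodies). The authors deposited unfiltered matrices of UMI counts per gene and hashtag (mm10). The submitters' processing notes name Cell Ranger 6.0.1 and the file headers version 4. Columns with no sample numbered 0. Cells were called here by an order-of-magnitude threshold plus a test against free RNA (at least 500 UMIs), and kept with at least 200 genes, at most 25% mitochondrial UMIs and outside the top 6% of Scrublet scores. Scrublet's own threshold had marked 0 to 4 barcodes per library. Cells were clustered in Seurat 5.3.0 (2000 variable genes, 40 components, resolution 0.8) without the members, Ythdf2, Lyz1 and Lyz2, and a class needed 3 raised markers. UMIs were summed per group (Python 3.11.15, scipy 1.17.1), and 1 UMI was added for log2 ratios. Intervals are exact Poisson, conditional binomial or Clopper-Pearson. TMM factors came from edgeR 4.0.16. Ratio code was tested on simulated data.

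All members, the listed partners and lectins past the limit, and the 5 genes most like Cd209a and Clec9a were named. Likeness used sums per cluster and group, in place of the planned classes, over 11561 genes with at least 200 UMIs. The members and lists were chosen with earlier results of these data known. Alternatives changed cell calling, hashtag rules, filters, clustering, scaling and the UMIs added.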

Additional observations from a re-analysis of the deposited data

Results flagged for a closer look

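Cd209a had opposite signs after irradiation in tumor cells labelled WT (-0.79) and labelled cKO (1.05), in cells labelled cKO of blood (-1.08) and tumor (1.05), and for cKO over WT in tumor control (-1.60) and tumor IR (0.24). Each side is 1 pool of mice, and these differences were not tested. In tumor cells labelled cKO the value of 1.05 was -0.44 under HTODemux.

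Cells whose B0302 was 1 to 4 times B0301 received no label and entered no comparison. They carried Cd209a at 36.6 CPM in blood control, 19.8 CPM in blood IR, 15.5 CPM in tumor control and 8.07 CPM in tumor IR, each above the limit that a count of 0 allows.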

How the results depend on the processing

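No paired analysis was possible because each group is 1 pool of mice with 1 replicate number, and the cKO over WT ratios are already taken within each library. Of 26 ratios past the limit, 330 of 332 alternative values kept the sign and 319 stayed past the limit. Over all members and comparisons, 1136 of 1197 kept the sign. The causes of the changes below were not tested. Leaving out neutrophil, lymphoid, fibroblast and basophil classes and reading the other tumor matrix were chosen after seeing the data, as was leaving out dendritic classes for results other than the cKO over WT ratio of Cd209a.

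The cKO over WT ratio of Cd209a without the dendritic classes was -0.69 (blood control), -2.05 (blood IR), -2.45 (control tumors) and -1.47 (irradiated tumors). It was 0.41 in tumor control and 0.96 in tumor IR with the symmetric margin, -1.36 in tumor control without neutrophil, lymphoid, fibroblast and basophil classes, -1.84 there in the other tumor matrix, and -1.37 in tumor IR under HTODemux. Its IR over control ratio in tumor cells labelled cKO was -0.44 under HTODemux, 0.61 without neutrophil and the other listed classes, 0.98 with every barcode of at least 500 UMIs and 0.96 without barcodes in both tumor matrices. Within conventional dendritic cell-like cells, Mrc1 was 0.57 (44 against 18 UMIs) for IR over control in tumor cells labelled cKO. It was -1.05 (41 against 65 UMIs) for tumor over blood in control WT. Clec4n was 0.78 and Clec5a 0.61 after IR in tumor cells labelled cKO without neutrophil and the other listed classes, and Mrc1 was -0.99 to -0.82 there under 4 alternatives. Mrc1 for cKO over WT in tumor IR was 0.97 in the other matrix.

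Members past the limit for cKO over WT numbered 0 in blood control without dendritic classes, 1 in blood IR under HTODemux, without neutrophil and the other listed classes or with at least 20 UMIs, 0 in tumor control with the symmetric margin and 2 without neutrophil and the other listed classes, and in tumor IR 2 under HTODemux, 2 without dendritic classes and 0 in the other matrix. For IR over control they numbered 2 in tumor WT with TMM factors, and in tumor cKO 3 under HTODemux, 3 without dendritic classes and 2 without neutrophil and the other listed classes. For tumor over blood in control WT they numbered 6 without neutrophil and the other listed classes.

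The share of Cd209a UMIs in conventional dendritic cell-like cells was 0% in both tissues at resolution 0.4, where no such class was named, and with all variable genes 91.9% in blood and 92.8% in tumor. Mrc1 in macrophage-like tumor cells was 96.5% at resolution 0.4, 82.8% at 1.2 and 54.0% with all variable genes, and Clec4d in neutrophil-like blood cells was 94.4% with the symmetric margin. Thinned to 1000 UMIs, the share of cells with a UMI was 45.5% and 20.2% for Cd209a in clusters 17 and 15, 19.7% and 22.6% for Clec10a, 62.6% for Mrc1 in cluster 11, 58.6% for Clec4d in cluster 1 and 52.6% for Clec4n in cluster 5.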

Other observations

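Other C-type lectin genes were 27 in all, with 9 to 14 counted per comparison. In tumor over blood, those past the limit were 4 higher and 5 lower of 13 in control WT. They were 3 and 4 of 13 in control cKO, 4 and 4 of 12 in IR WT and 6 and 4 of 13 in IR cKO. The shares of all genes were 35.5%, 44.0%, 32.4% and 32.1%. The blood groups were mostly neutrophil-like cells and the tumor groups were not. For genotype and irradiation the shares of all genes were 0.664% to 22.3%. Mgl2, a galactose receptor of the same family as Clec10a, was higher in tumor by log2 ratios of 7.23, 8.20, 7.11 and 8.37 in control WT, control cKO, IR WT and IR cKO. Olr1, a receptor for oxidised lipoprotein, was higher by 4.31, 4.76, 4.91 and 4.99. Clec4a1 was lower in tumor by -1.61, -2.37, -1.32 and -1.51, and Clec4a3, Clec4b1 and Clec2i were past the limit on the same side in all 4. Higher in tumor in some comparisons were Ly75 (1.30 in control WT and 1.57 in IR cKO), Cd93 (1.24 in IR WT and 1.25 in IR cKO), Clec2d (1.03 in IR WT), Clec1b (1.22 in IR cKO), Cd209d (1.61 in IR cKO) and Mrc2 in both control comparisons, and Clec1a was lower in control WT (-2.92). After IR, Cd209d, Mgl2 and Mrc2 were lower in tumor cells labelled WT (-1.71, -1.08 and -1.26). In tumor cells labelled cKO, Clec1b, Clec2d and Cd209d were higher (1.73, 1.28 and 1.05) and Mrc2 was lower (-2.62). For cKO over WT in blood control, Ly75 was higher (1.14) and Clec1a lower (-1.04).

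Droplets under 20 hashtag UMIs, which entered no comparison, held Cd209a at 17.05 CPM over 7123 cells of the tumor control matrix and 19.8 CPM over 4800 cells of the tumor IR matrix. Their Clec4d level was near that of the opposite library. It was at 520 CPM (interval 512 to 528) in such droplets of the tumor control matrix, beside 519 CPM in tumor IR cells with hashtags and 218 CPM in tumor control cells with hashtags. In such droplets of the tumor IR matrix it was 213 CPM. Read from the other tumor matrix, the cells of tumor control labelled WT and cKO had 34.8 and 9.62 CPM of Cd209a, and those of tumor IR had 17.8 and 19.3 CPM.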
